A study of Homo sapiens with 8 samples.

Results

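PAX2, PAX8, LHX1, EYA1, SIX2, SALL1, WT1 and OSR1 are transcription regulators that build the embryonic kidney. These 8 genes were taken by name as renal lineage factors from the 34290 genes with at least 1 count in any library, and the deposited values of their transcripts were summed per gene. All 8 had a count in at least 1 library. A filter on low counts kept 19280 genes for testing, among them 7 of the 8 factors, with PAX8 left out. The cells were HEK293T, cells of human embryonic kidney origin made to carry SV40 large T antigen. In 4 libraries the cells overexpressed human KCNQ3, a potassium channel subunit, from a tagged construct after transfection with FuGene HD and harvest at 48 hours. The other 4 libraries came from normal HEK293T cells. The labels attach one transfection text to all 8 samples, so it is not known here what the control cells were given. The share of cells that took up the construct is likewise not stated.

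The kidney forms from the intermediate mesoderm. OSR1, PAX2, PAX8 and LHX1 act early there, when the nephric duct and the kidney-forming mesenchyme are set aside, and PAX2 and PAX8 can in part stand in for each other in the mouse. SIX2, EYA1, SALL1 and WT1 act in the cap mesenchyme, the pool of nephron progenitors around each ureteric bud tip. SIX2 keeps these cells undifferentiated, and WT1 is later kept on in podocytes. In the kidney the bud and the mesenchyme signal to each other, chiefly through GDNF from the mesenchyme and its receptor RET in the bud.

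Total estimated counts ran from 24020097 to 30734915 per library. KCNQ3 had 15283, 15874, 19709 and 18603 counts in overexpression replicates 1 to 4, against 4, 5, 0 and 2 counts in control replicates 1 to 4. The library labels and the transfected gene thus matched in all 8 libraries. The submitters call the replicates biological, but nothing states that they came from separate cultures, so the spread that p-values measure, between these samples alone, may be technical. Levels are given in TPM, transcripts per 1000000 transcripts, which is scaled for transcript length, or in CPM, counts per 1000000 counts after TMM scaling, which is not.

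Per length, the 8 factors differed in level. SIX2, SALL1 and EYA1 were the most abundant, WT1, LHX1 and PAX2 lay near 2 TPM, OSR1 was under 1 TPM in all 8 libraries and PAX8 was at or next to 0. In control libraries SIX2 averaged 13.01 TPM, higher than 62.1% of 19906 protein-coding genes, and SALL1 averaged 12.6 TPM, higher than 61.4% of them. EYA1 stood above 54.3% of protein-coding genes, WT1 above 41.6%, LHX1 above 40.9%, PAX2 above 40.5% and OSR1 above 31.4%. The median protein-coding gene had 5.75 TPM in control libraries, and 3555 protein-coding genes were at 0 there, PAX8 among them. In this order SIX2 and SALL1 overlapped in their ranges over 4 control libraries, as did WT1 with LHX1 and LHX1 with PAX2. The ranges of SALL1 and EYA1, of EYA1 and WT1, of PAX2 and OSR1, and of OSR1 and PAX8 did not overlap. In the overexpression libraries the same neighbours overlapped and the same neighbours stood apart.

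**Figure D1:**
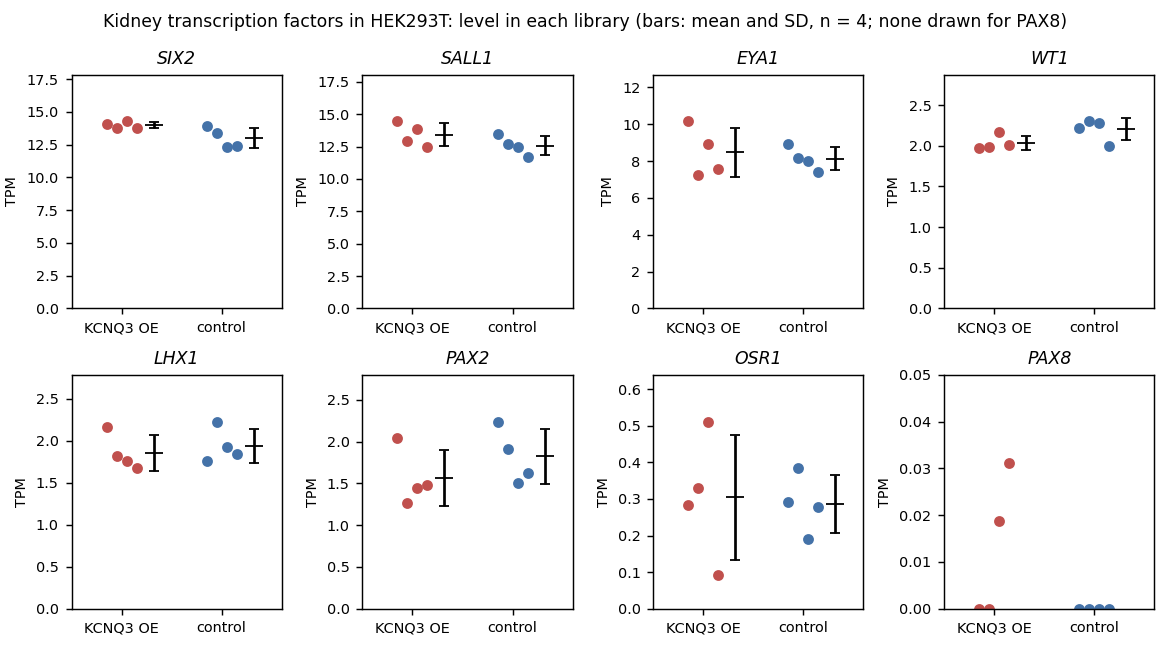
Level of each kidney factor in TPM (vertical axes, each from 0), with 1 point per library, KCNQ3 overexpression (OE, red) on the left and control (blue) on the right. Bars give the mean and SD of 4 libraries, with none for PAX8. In TPM the groups overlap for all 8 factors, and SIX2 lies between 13.8 and 14.3 TPM in overexpression libraries and between 12.3 and 13.9 TPM in control libraries.

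The comparison asks whether transcripts differ between cells that overexpressed this channel subunit and normal cells. What the control cells were given is not known, so KCNQ3 and the transfection itself cannot be told apart here. None of the 7 tested factors passed edgeR's quasi-likelihood test at an adjusted p of 0.05, where 0.301% of all 19280 tested genes did (58 genes). DESeq2 gave an adjusted p for 6 of them, OSR1 being left out, and called 0, where it called 4.86% of 14974 genes (727 genes). At an unadjusted p under 0.05 there was 1 of 7, SIX2, beside a background of 19.4% of all tested genes. The groups stood apart in CPM for 1 of 7, again SIX2, where 11.6% of all tested genes had groups that did not overlap. The log2 fold change was above 0 for 5 of 7 factors, against 52.6% of all tested genes, and its median over the 7 was 0.015, against 0.0090 over all tested genes.

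**Figure D2:**
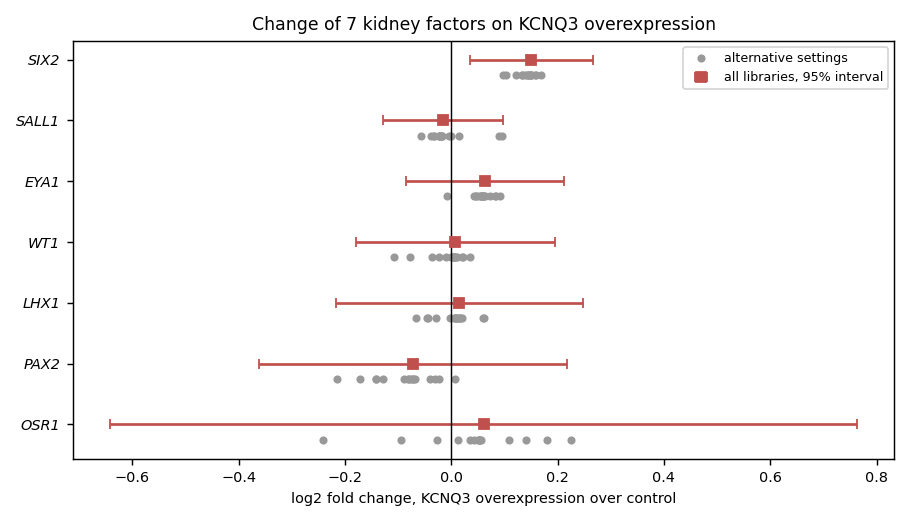
Log2 fold change of the 7 tested factors (horizontal axis, KCNQ3 overexpression over control). Red squares and bars give the estimate from all 8 libraries with its 95% interval, and grey points give the estimates under alternative settings. SIX2 lies to the right of 0 at each setting, with 0.15 from all libraries, whereas the interval of OSR1 runs from -0.64 to 0.76.

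OSR1, a zinc finger factor among the earliest marks of the intermediate mesoderm, was rare. It had 9, 10, 17 and 6 counts in overexpression replicates 1 to 4, and 12, 13, 6 and 11 counts in control replicates 1 to 4. In TPM these were 0.284, 0.329, 0.511 and 0.0926 in overexpression libraries, against 0.292, 0.383, 0.190 and 0.279 in control libraries. The highest and the lowest TPM both belonged to overexpression libraries, and the control values lay between them. Yet overexpression replicate 4, the lowest in TPM, and control replicate 3 both had 6 counts, which is 0.249 and 0.251 CPM. The log2 fold change was 0.06 (SE 0.32, adjusted p 0.945), and its 95% interval ran from a fold of 0.641 to one of 1.70. OSR1 (ENSG00000143867) lies at chr2:19351485-19358653 on the minus strand of GRCh38. Its protein-coding transcript OSR1-201 (1936 bases) held all OSR1 counts in overexpression replicates 1 to 3 and 0 in replicate 4. There OSR1-202, annotated as a retained intron and 4171 bases long, held all of them, so the TPM was scaled to a longer transcript. In control replicates 1 to 4, OSR1-201 held 83.3%, 84.6%, 100% and 81.8% of the counts.

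PAX2, a paired-domain factor needed for the nephric duct and for the mesenchyme, had 116, 79, 91 and 88 counts in overexpression replicates 1 to 4, against 138, 111, 79 and 86 in control replicates 1 to 4. This came to 2.05, 1.27, 1.45 and 1.49 TPM in overexpression libraries and to 2.24, 1.92, 1.51 and 1.63 TPM in control libraries. Replicate 1 was the highest library of each group, and the groups overlapped. The means were 1.56 ± 0.336 TPM with KCNQ3 and 1.82 ± 0.327 TPM in control (SD, n = 4 each). By counts the log2 fold change was -0.07 (SE 0.13, 95% interval -0.36 to 0.22, adjusted p 0.820), and without control replicate 1 it was 0.0061.

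The PAX2 counts were divided between a pair of transcripts that differ in a coding exon. PAX2 (ENSG00000075891) lies at chr10:100735603-100829941 on the plus strand of GRCh38, and the exon of 83 bases at chr10:100824902-100824984. PAX2-203 (1188 coding bases) has the exon and PAX2-201 (1182 coding bases) lacks it. The exon is shown because assignment to one or the other transcript turns on it. It is in capitals, as read from the PAX2-203 transcript of GENCODE 29, between the ends of the exons on either side:
PAX2 exon with flanks, chr10:100824730-100827028, plus strand: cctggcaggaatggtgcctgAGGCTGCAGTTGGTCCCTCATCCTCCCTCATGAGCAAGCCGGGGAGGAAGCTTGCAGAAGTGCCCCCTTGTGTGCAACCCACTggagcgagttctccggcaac
PAX2-203 held 0%, 0%, 81.3% and 95.5% of PAX2 counts in overexpression replicates 1 to 4, against 79.7%, 89.2%, 89.9% and 80.2% in control replicates 1 to 4. PAX2-201 held 77.6% and 93.7% in overexpression replicates 1 and 2, and 0 in the other 6 libraries. The overexpression libraries thus split into a pair on each transcript, and no control library had counts on PAX2-201. In edgeR's transcript test 0.0127% of 47129 transcripts passed. Of the 7 transcripts of the kidney factors that were tested, 0 passed and 0 had an unadjusted p under 0.05, where 5.58% of all tested transcripts did. PAX2-201 fell below the filter, and with no filter its unadjusted p was 0.0545 and its adjusted p 0.737. PAX2-203 had a log2 fold change of -1.09, with an interval from -4.79 to 2.61.

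PAX8, the paralog of PAX2, had 0, 0, 2 and 2 counts in overexpression replicates 1 to 4 and 0 counts in all 4 control replicates. Its 4 counts lay on 1 of 13 deposited transcripts, PAX8-201, and gave at most 0.0311 TPM. A count of 0 allows up to 3 counts per library, which is 0.0973 to 0.125 CPM, so the values of both groups lay at or under this floor. The gene (ENSG00000125618, chr2:113215997-113278950, minus strand) overlaps PAX8-AS1 on the other strand, which had 3, 0, 2 and 2 counts in overexpression libraries and 4, 1, 1 and 1 in control libraries. The sources used here do not give the strand setting of counting, so reads of overlapping genes on opposite strands may not have been told apart.

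LHX1, a LIM homeodomain factor of the nephric duct and the early nephron, had 67, 61, 69 and 62 counts in overexpression replicates 1 to 4, against 69, 73, 55 and 70 in control replicates 1 to 4. In TPM it stood at 2.16, 1.82, 1.76 and 1.67 in overexpression libraries and at 1.77, 2.23, 1.93 and 1.85 in control libraries. The groups covered nearly the same range, with means of 1.85 ± 0.216 TPM with KCNQ3 and 1.94 ± 0.202 TPM in control (SD, n = 4 each). The log2 fold change by counts was 0.02 (SE 0.11, 95% interval -0.22 to 0.25, adjusted p 0.961), and its sign turned with the scale, as it was -0.046 on log2(TPM + 1). LHX1 (ENSG00000273706) lies at chr17:36936785-36944612 on the plus strand. Its protein-coding transcript LHX1-201 held 78.3% to 90.0% of the gene's counts in each of the 8 libraries. In TPM its part was smaller, with an average of 0.967 with KCNQ3 and 0.978 in control. LHX1-203, a processed transcript of 569 bases, averaged 0.758 TPM with KCNQ3 and 0.830 TPM in control. These rested on 29 and 33 counts per group, so the TPM level of LHX1 is not that of coding RNA alone.

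SIX2, the homeodomain factor that holds nephron progenitors undifferentiated, had the highest mean TPM of the 8 in both groups, with a range that overlapped that of SALL1, and its groups stood apart in CPM. It had 18.6, 19.9, 20.1 and 19.5 CPM in overexpression replicates 1 to 4, against 18.0, 18.0, 16.7 and 17.7 CPM in control replicates 1 to 4. The lowest overexpression library was thus above the highest control library on this scale, as for 5.84% of all tested genes. In TPM, with 14.0, 13.8, 14.3 and 13.8 in overexpression libraries and 13.9, 13.4, 12.3 and 12.4 in control libraries, the groups overlapped, since control replicate 1 reached the level of the overexpression libraries. The log2 fold change was 0.15 (SE 0.05), a fold of 1.11 with a 95% interval from 1.03 to 1.202. Its unadjusted p was 0.0150 and its adjusted p 0.159, so it did not pass the test. The sign was the same in 16 of 16 alternative settings, with adjusted p from 0.112 to 0.511. SIX2 (ENSG00000170577) lies at chr2:45005161-45009430 on the minus strand and has 1 transcript in the deposited tables, so its gene and transcript counts are the same. In the transcript test, where the spread is estimated over transcripts, SIX2-201 had a log2 fold change of 0.12 with an unadjusted p of 0.204.

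EYA1, a phosphatase and coactivator that works with SIX2 and its relatives, had 638, 478, 539 and 496 counts in overexpression replicates 1 to 4, against 651, 529, 482 and 489 in control replicates 1 to 4. This came to 10.2, 7.26, 8.91 and 7.58 TPM in overexpression libraries and to 8.91, 8.17, 8.0 and 7.41 TPM in control libraries. Overexpression replicate 1 was the highest library and replicate 2 of the same group the lowest, so the control range lay within that of the overexpression libraries. The means were 8.48 ± 1.33 TPM with KCNQ3 and 8.12 ± 0.618 TPM in control (SD, n = 4 each). By counts the log2 fold change was 0.06 (SE 0.07, 95% interval -0.08 to 0.21, adjusted p 0.658), and without overexpression replicate 1 it was -0.0080.

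EYA1 (ENSG00000104313, chr8:71197433-71592025, minus strand) had counts on 13 of 24 deposited transcripts, yet nearly all of them lay on 1 transcript in a given library. EYA1-202 held 91.7%, 0.418%, 89.6% and 1.01% of EYA1 counts in overexpression replicates 1 to 4, against 94.0%, 93.0%, 96.9% and 94.3% in control replicates 1 to 4. In overexpression replicates 2 and 4, EYA1-224 took its place with 95.6% and 96.6%, where it held 0.461% in control replicate 1 and 0 in the other 5 libraries. Both transcripts code for the same 1776 bases. They differ in their first exons, and EYA1-202 has 78 more bases at the 3′ end. EYA1-202 had a log2 fold change of -0.94, with an interval from -4.42 to 2.53. EYA1 was the only one of the 8 factors with enough transcripts past the filter for a test of transcript usage, with EYA1-202 and EYA1-206 in the test. EYA1-224 fell below the filter, so this test (adjusted p 1.00, where 0.383% of 9395 genes were called) says nothing about the exchange between EYA1-202 and EYA1-224. With a filter at a mean of 50 counts, which both transcripts pass, the usage test gave EYA1 an unadjusted p of 0.0245 and an adjusted p of 0.374. EYA1-224 passed that filter through the overexpression group, with 936 counts there against 3 in control. With no filter, EYA1-224 had an unadjusted p of 0.0268 and an adjusted p of 0.737 in the transcript test.

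WT1, a zinc finger factor needed for survival of the mesenchyme, had 101, 97, 118 and 98 counts in overexpression replicates 1 to 4, against 129, 106, 91 and 105 in control replicates 1 to 4. In TPM these were 1.97, 1.98, 2.17 and 2.01 in overexpression libraries and 2.22, 2.30, 2.28 and 2.003 in control libraries. Only control replicate 4 reached down into the overexpression range, yet in CPM, with 3.79 to 4.40 in overexpression libraries and 3.80 to 4.18 in control libraries, the groups overlapped, with overexpression replicate 3 the highest library. The log2 fold change by counts was 0.01 (SE 0.09, 95% interval -0.18 to 0.20, adjusted p 0.987), and on log2(TPM + 1) it was -0.077. WT1 (ENSG00000184937) lies at chr11:32387775-32435630 on the minus strand. WT1-AS, on the opposite strand, had 7, 11, 6 and 5 counts in overexpression libraries and 10, 9, 11 and 14 in control libraries.

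WT1 protein exists in forms set by a pair of splicing choices, an exon of 51 bases before the zinc fingers and a stretch of 9 bases between the third zinc finger and the last. The stretch adds lysine, threonine and serine (KTS), and forms with it are known to bind DNA less well. Both stretches are shown because they set these forms. They are in capitals within their neighbouring coding sequence in WT1-201 of GENCODE 29:
WT1 exon of 51 bases, chr11:32400025-32417596, minus strand: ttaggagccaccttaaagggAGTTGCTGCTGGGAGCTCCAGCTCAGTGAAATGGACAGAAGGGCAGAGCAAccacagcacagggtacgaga
WT1 KTS stretch, chr11:32389150-32392010, minus strand: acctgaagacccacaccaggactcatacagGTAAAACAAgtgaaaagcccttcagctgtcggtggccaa
Transcripts whose RNA has the KTS stretch held 87.1%, 99.0%, 100% and 94.9% of WT1 counts in overexpression replicates 1 to 4, against 90.7%, 86.8%, 48.4% and 100% in control replicates 1 to 4. Transcripts whose RNA has the exon of 51 bases held 87.1%, 84.5%, 100% and 84.7% in overexpression replicates 1 to 4, against 90.7%, 100%, 100% and 100% in control replicates 1 to 4. For both features the groups overlapped, and the low KTS value was that of control replicate 3. WT1-202, which has both features in its RNA and is annotated as a target of nonsense-mediated decay, held 84.5% to 96.6% of the counts in overexpression libraries and 86.8% to 94.3% in control replicates 1, 2 and 4. In control replicate 3 it held 0, and the counts lay on WT1-203 (50.5%) and WT1-201 (48.4%). Its annotated coding part of 951 bases takes in neither feature, so counts on WT1-202 are not counts of RNA that encodes them. With 91 to 129 counts per library these shares rest on few reads, and their division between transcripts is the authors' estimate.

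**Figure D3:**
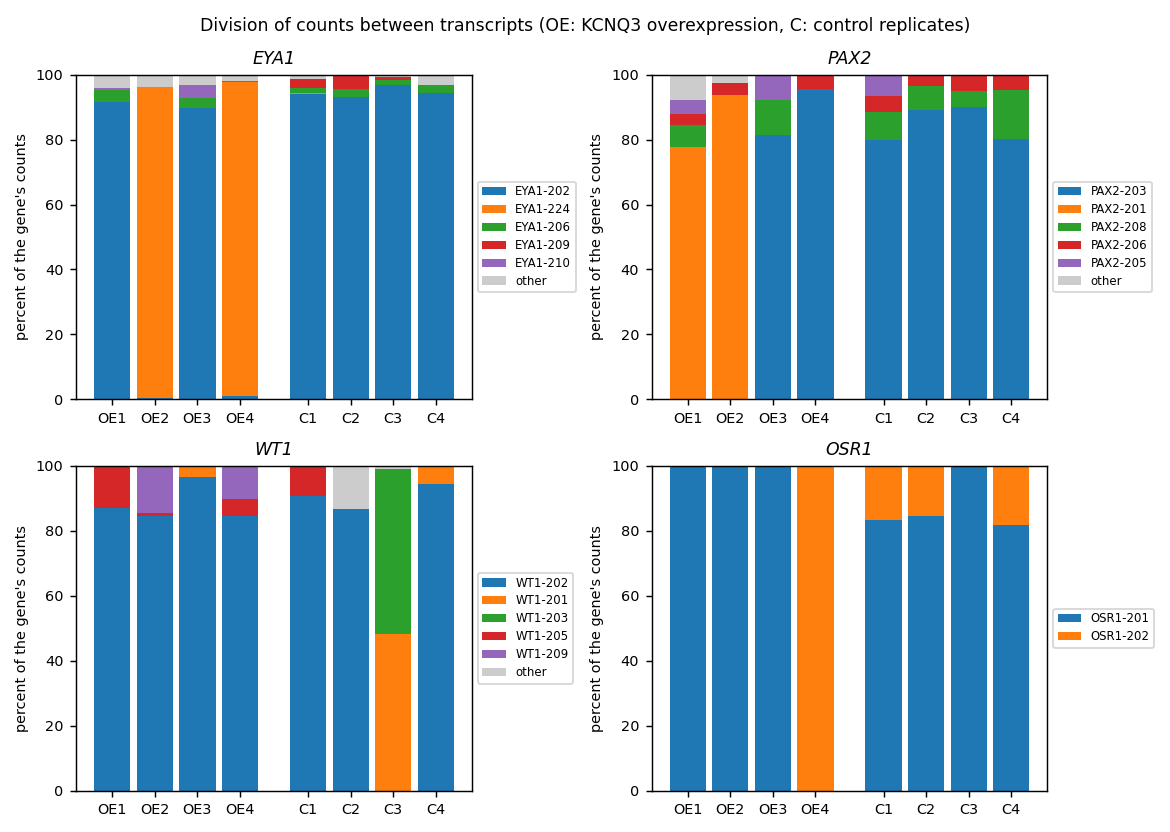
Percent of the counts of EYA1, PAX2, WT1 and OSR1 on each transcript (vertical axes), with 1 bar per library, overexpression replicates OE1 to OE4 left of control replicates C1 to C4. EYA1-224 holds 95.6% and 96.6% in OE2 and OE4, PAX2-201 holds 77.6% and 93.7% in OE1 and OE2, and OSR1-202 holds all counts of OE4, whereas for WT1 the library that stands apart is C3.

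SALL1, a zinc finger repressor of the nephron progenitors, had 1095, 863, 1066 and 887 counts in overexpression replicates 1 to 4, against 1233, 1020, 928 and 947 in control replicates 1 to 4. In TPM it stood at 14.5, 12.96, 13.8 and 12.5 in overexpression libraries and at 13.5, 12.7, 12.5 and 11.7 in control libraries. The groups overlapped on both scales. By counts the log2 fold change was -0.02 (SE 0.05, 95% interval -0.13 to 0.10, adjusted p 0.905), whereas on log2(TPM + 1) it was 0.089. SALL1 (ENSG00000103449) lies at chr16:51135975-51151367 on the minus strand.

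The full-length SALL1-201 had 13.1, 10.4, 11.9 and 10.9 TPM in overexpression replicates 1 to 4, against 13.2, 12.3, 12.3 and 11.3 TPM in control replicates 1 to 4, and the groups overlapped. A short transcript, SALL1-204, was singled out after its values were seen. It is 565 bases long against 5146 for SALL1-201, and it lacks the exon of 3458 bases at chr16:51138688-51142145 that holds most of the coding sequence. It has 102 coding bases, against 3972 in SALL1-201. SALL1-204 had 9, 23, 17 and 10 counts in overexpression replicates 1 to 4 and 0 in all 4 control replicates. In TPM these were 0.971, 2.52, 1.72 and 1.08 in overexpression libraries. On average SALL1-204 gave 1.57 TPM and SALL1-201 gave 11.6 TPM with KCNQ3, against 0 and 12.3 TPM in control. The SALL1 sum averaged 13.4 TPM with KCNQ3 and 12.6 TPM in control, so it was higher with KCNQ3 although SALL1-201 was lower. For SALL1-204 the groups did not overlap, with 59 counts against 0. With 3 counts as the floor over all control libraries together, the ratio to that floor was 20.55 (counting error only). This leaves out error in the division of reads between transcripts, so 20.55 is no sure lower bound. Of the 638, 478, 539 and 496 EYA1 counts in overexpression replicates 1 to 4, that division placed 0, 457, 0 and 479 on EYA1-224. SALL1-204 held 0.822%, 2.67%, 1.59% and 1.13% of SALL1 counts in overexpression replicates 1 to 4.

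Of 125062 transcripts with a count, 19 had at least 9 counts in every overexpression library and 0 in every control, and 41 had the reverse. SALL1-204 fell below the low-count filter of the transcript test. With no filter its p was 5.08e-04 and its adjusted p 0.737, and 0 of 125062 transcripts were called, with 4815 at an unadjusted p under 0.05. With the minimum count lowered to 5, the test of transcript usage called SALL1 (adjusted p 3.25e-04), as it did 0.682% of 10557 genes. The same test with a minimum count of 10 had too few SALL1 transcripts with all 8 libraries, and likewise without overexpression replicate 2, 3 or 4. It called SALL1 without overexpression replicate 1 (adjusted p 7.08e-04) and without each control replicate (adjusted p 0.00188 to 0.00334). These usage settings let a transcript in through the group in which it is high, so a call there is no independent evidence.

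**Figure D4:**
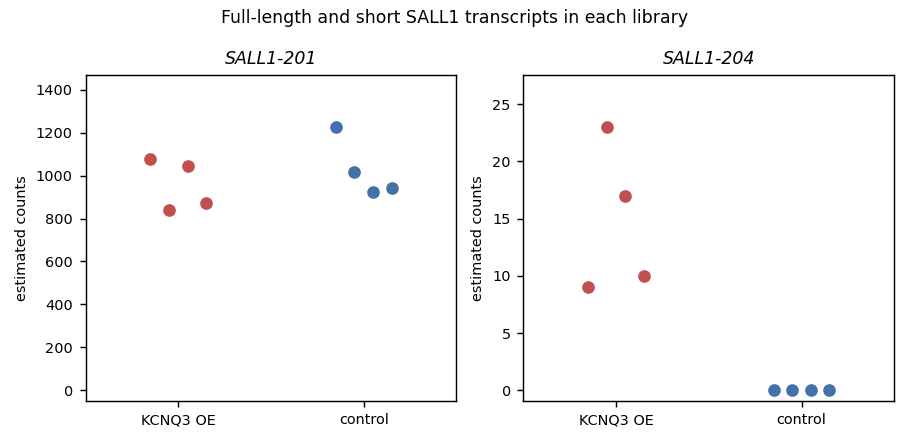
Estimated counts of SALL1-201 (left panel) and SALL1-204 (right panel) on their own vertical axes, with 1 point per library, KCNQ3 overexpression (OE, red) left of control (blue). The groups overlap for SALL1-201, whereas SALL1-204 has 9 to 23 counts in overexpression libraries and 0 in each control library.

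The relatives of the 8 factors in the families of PAX2, SIX2, EYA1, SALL1, LHX1 and OSR1 were read beside them, 27 genes with DACH1. Of these, 21 were tested, 0 passed edgeR's test, 1 had an unadjusted p under 0.05 and 18 averaged over 1 TPM in control libraries. Among all tested genes, 0.301% passed and 19.4% had an unadjusted p under 0.05. PAX6, the eye and brain PAX factor, averaged 21.1 ± 1.98 TPM with KCNQ3 and 25.3 ± 2.81 TPM in control (SD, n = 4 each), more than 10 times the TPM of PAX2 in both groups. The ratio was smaller in CPM, where PAX6 averaged 29.1 with KCNQ3 and 31.4 in control, and PAX2 3.67 and 3.85. SALL2 averaged 20.9 ± 1.87 TPM with KCNQ3 and 23.03 ± 1.95 TPM in control (SD, n = 4 each), but a level computed from its counts and the GENCODE 29 transcript lengths was 152.6 with KCNQ3 and 171.9 in control, so its level per length is uncertain. EYA3 averaged 20.8 ± 0.496 TPM with KCNQ3 and 23.5 ± 0.882 TPM in control (SD, n = 4 each). The median log2 fold change of the tested relatives was -0.059. PAX4, SIX6 and LHX5 were at 0 in all 8 libraries.

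Other regulators of intermediate mesoderm and nephron progenitors gave 0 called and 1 at an unadjusted p under 0.05 of 12 tested (15 listed), with a median log2 fold change of 0.033. FOXC1, a forkhead factor of the early mesoderm, averaged 99.3 ± 11.7 TPM with KCNQ3 and 99.6 ± 8.39 TPM in control (SD, n = 4 each). HOXA11, one of the HOX11 genes that the metanephric kidney needs, had the smallest adjusted p of all lists, 0.1003, with a log2 fold change of 0.17 (SE 0.05). Among 20 factors of later nephron segments and collecting duct, 12 were tested, 0 were called by edgeR and 4 had an unadjusted p under 0.05, a level that 19.4% of all tested genes reached. HEY1, a Notch target, was the most abundant of them with 193 ± 7.78 TPM with KCNQ3 and 176 ± 11.7 TPM in control (SD, n = 4 each, adjusted p 0.122), and DESeq2 called it (adjusted p 0.0151) among its 727 genes. IRX2 and FOXI1 were at 0 in every library.

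Of 28 genes of inductive signals and their receptors, 24 were tested, 0 passed and the median log2 fold change was 0.013. An unadjusted p under 0.05 was seen for 2 of the 24, RET and FZD4, beside a background of 19.4% of all tested genes. The FGF receptors FGFR1 and FGFR2 led this list, FGFR1 with 29.4 ± 5.44 TPM with KCNQ3 and 28.3 ± 1.75 TPM in control, and FGFR2 with 24.1 ± 2.93 TPM with KCNQ3 and 22.5 ± 1.246 TPM in control (SD, n = 4 each). RET, the GDNF receptor of the ureteric bud, averaged 1.55 ± 0.153 TPM with KCNQ3 and 1.36 ± 0.121 TPM in control (log2 fold change 0.20, unadjusted p 0.0369, adjusted p 0.225). FZD4 had a log2 fold change of 0.18 in the same edgeR test (unadjusted p 0.00712, adjusted p 0.125).

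Regulators of the renal stroma, a lineage beside the nephron progenitors, summed to 60.5 to 66.7 TPM in overexpression libraries and to 62.2 to 72.0 TPM in control libraries, with 4 of 7 above 1 TPM in control and FOXD1, the stromal forkhead factor, at 19.5 ± 1.52 TPM with KCNQ3 and 20.03 ± 1.80 TPM in control (SD, n = 4 each). Of the nephron cell types, podocyte genes summed to 23.9 to 32.6 TPM with KCNQ3 and 27.9 to 31.4 TPM in control, nearly all from CD2AP and PODXL. Tubule genes summed to 3.48 to 5.16 TPM with KCNQ3 and 3.29 to 6.31 TPM in control, with 4 of 12 at 0 throughout, among them the organic anion transporter SLC22A6 and uromodulin (UMOD). Collecting duct genes summed to 4.6 to 5.90 TPM with KCNQ3 and 3.91 to 5.09 TPM in control, with 4 of 8 at 0 throughout, the water channel AQP2 among them. Of the 16 tested genes in these 4 lists, 0 passed edgeR's test and 4 had an unadjusted p under 0.05, where 19.4% of all tested genes did.

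HEK293T has also been compared with adrenal cells, so adrenal and other markers were counted. Adrenal cortex and medulla markers summed to 0.799 to 1.19 TPM in overexpression libraries and to 0.888 to 1.15 TPM in control libraries, with 6 of 11 at 0 throughout, among them CYP11A1 and TH, and 0 above 1 TPM. Fibroblast, vessel and blood markers summed to 3.91 to 6.15 TPM with KCNQ3 and 5.62 to 7.34 TPM in control, of which COL1A1 gave 4.76 ± 1.09 TPM with KCNQ3 and 5.55 ± 0.764 TPM in control (SD, n = 4 each). PTPRC, CD3E, HBB and CDH5 were at 0 in every library. The summed level of the 8 kidney factors was 39.1 to 45.1 TPM with KCNQ3 and 37.3 to 42.8 TPM in control.

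**Figure D5:**
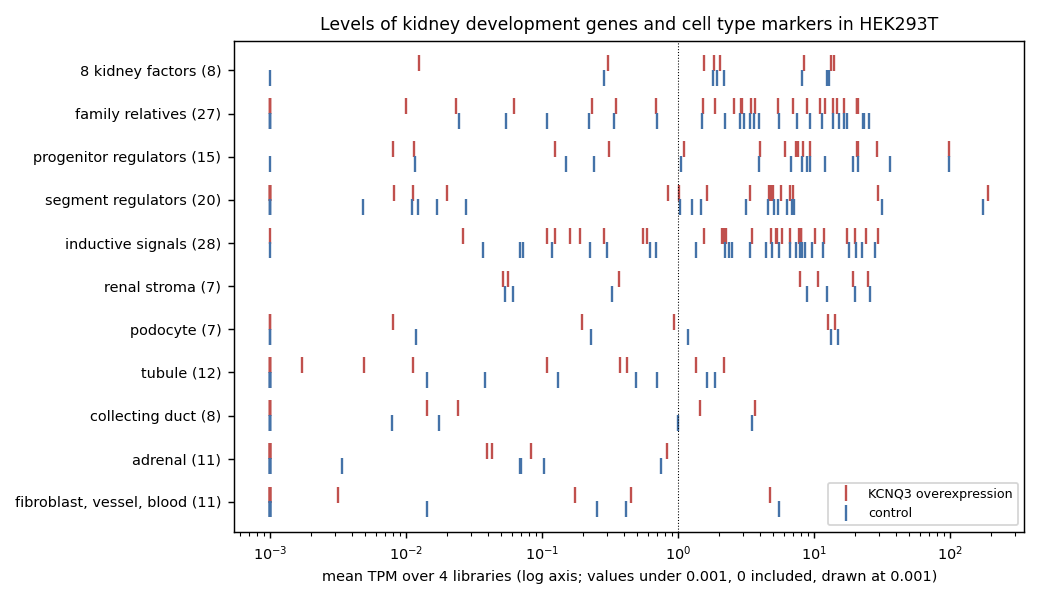
Mean TPM over 4 libraries (horizontal log axis, values under 0.001 and 0 drawn at 0.001) of each gene of the lists, with KCNQ3 overexpression in red above control in blue, the number of genes in brackets and a dotted line at 1 TPM. In control, 6 of 8 kidney factors lie over 1 TPM, as do 18 of 27 family relatives, 11 of 15 progenitor regulators and 12 of 20 segment regulators. So do 19 of 28 inductive signals, 4 of 7 stroma genes, 3 of 7 podocyte genes and 2 of 12 tubule genes. The same holds for 1 of 8 collecting duct genes, 1 of 11 fibroblast, vessel and blood genes and 0 of 11 adrenal genes.

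The genes whose levels over the 8 libraries lay nearest to a factor were sought among 10080 protein-coding genes with at least 10 CPM on average. For EYA1 they were MEIS2 and ZMYND19, at a root mean square difference of 0.032 and 0.035 in log2 CPM. For SIX2 they were DFFB (0.016) and HCFC1R1 (0.024), and for SALL1 PLEKHH1 (0.016) and KIAA1958 (0.021). These are descriptions over 8 libraries in which the factors varied little.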

How the data were processed

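RNA of 8 HEK293T libraries was sequenced, 4 with KCNQ3 overexpression and 4 control. The submitters' processing notes name StringTie 2.1.0, HISAT2 2.1.0, SAMtools 1.9, FastQC 0.11.5 and cutadapt 2.8, and the build GRCh38.p13, with no roles. The authors deposited estimated counts per transcript, which were whole numbers, and TPM per transcript in a second table. Reads shared by transcripts were divided by the authors' estimate, so transcript values are less certain than gene sums. Of 227751 identifiers, 205804 matched GENCODE 29, and 21947 did not. Matched transcripts held 98.7% to 98.9% of counts. Over 12 replicate pairs, chi-square per degree of freedom was 9.72 to 18.6, so no library was a copy of another.

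Counts were summed per gene and tested with edgeR 4.0.16 (R 4.3.3, quasi-likelihood, TMM, filterByExpr with minimum count 10 and minimum total 15), on genes and on transcripts, with Benjamini-Hochberg adjustment over all features and a threshold of 0.05. Intervals are 95% and unadjusted. Transcript usage was tested with diffSpliceDGE. DESeq2 1.42.0 and limma 3.58.1 (on TPM) were alternatives, with other scalings, filters, a replicate block and each library left out. The tests were tested on simulated data. The 8 factors and the lists were chosen with earlier results of these data known. The rule named all 8 factors, the 3 most abundant genes of each list, list genes past the test, 2 transcripts per factor and the 2 nearest genes of each factor with at least 10 CPM. Not all of these are printed. Some list genes and a sequence are not reported here. HOXA11, RET and FZD4 lie outside the rule and were chosen after their values were seen, as were the marker genes named because they were at 0. Levels are mean ± SD over 4 libraries.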

Additional observations from a re-analysis of the deposited data

Results flagged for a closer look

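Of 73 groups of 4 libraries examined in TPM, 5 had a library far from the other 3 by Dixon's 95% limit, which chance gives in about 1 of 20 groups, and none of the 8 kidney factors was among them. FOXC1 was highest in overexpression replicate 1 with 116.7 TPM, the next having 95.02 TPM. BMP7, a signal that keeps nephron progenitors alive, was lowest in overexpression replicate 2 with 18.4 TPM, the next having 20.5 TPM. LUM, a fibroblast marker, was highest in that library with 0.300 TPM, the next having 0.146 TPM. LRP2, the endocytic receptor megalin of the proximal tubule, was highest in control replicate 2 with 2.17 TPM, the next having 1.81 TPM. SCNN1A, a subunit of the epithelial sodium channel, was at 0.0315 TPM in control replicate 1 and at 0 in the other 3 control libraries. This flag rests on 2 counts, and with 3 libraries at 0 any count in the remaining library passes Dixon's limit.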

How the results depend on the processing

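None of the kidney factors was called at gene or transcript level in any setting run, although the number of genes called moved, from 58 with all libraries (21 higher, 37 lower) to 35 without scaling (9 higher, 26 lower), 727 with DESeq2 (309 higher, 418 lower), 7 on log2(TPM + 1) or log2(TPM + 0.1), and 8 to 378 with 1 library left out (8 without overexpression replicate 2, 378 without overexpression replicate 1). The transcript test went from 6 calls to 0 with no filter, with a minimum count of 5 or with the replicate block, and to 0 to 9 with 1 library left out. The usage test went from 36 calls to 72 with a minimum count of 5, 21 with the replicate block and 122 to 164 with 1 library left out, and of the kidney factors it called 1 (SALL1) with a minimum count of 5 and 0 to 1 with 1 library left out. Both minimum counts of 5 and the transcript test with no filter were chosen after seeing the data. Same-numbered libraries shared only a number (correlations of -0.035 to 0.027), and the replicate block gave 86 gene calls. In the DESeq2 setting HEY1 passed (adjusted p 0.0151). SIX2 kept its sign in 16 of 16 alternatives. Signs turned for factors whose change was near 0. Without scaling LHX1 was -0.0021 and WT1 -0.010, with DESeq2 WT1 was -0.00074, on log2(TPM + 1) LHX1 was -0.046, SALL1 0.089 and WT1 -0.077, and on log2(TPM + 0.1) LHX1 was -0.067, SALL1 0.095, WT1 -0.11 and OSR1 -0.027. With 1 library left out, log2 fold changes ran from -0.17 to 0.0061 for PAX2, -0.043 to 0.062 for LHX1, -0.0080 to 0.091 for EYA1, -0.056 to 0.014 for SALL1, -0.036 to 0.035 for WT1 and -0.24 to 0.23 for OSR1. The cause was not tested. Of 76 mean levels, 24 moved by over 1 SD when computed as CPM per kilobase of GENCODE 29 length in place of the deposited TPM. OSR1 had 6 to 17 counts per library and PAX8 0 to 2.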

Other observations

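CITED1, a transcription cofactor of uninduced nephron progenitors chosen after its values were seen, varied widely between libraries of 1 group. It had 4.51, 6.99, 2.24 and 16.9 TPM in overexpression replicates 1 to 4, against 14.95, 15.9, 5.40 and 12.4 TPM in control replicates 1 to 4. The groups overlapped, since overexpression replicate 4 was the highest library and control replicate 3 lay below overexpression replicate 2.

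PAX6 passed the test of transcript usage with all libraries (adjusted p 0.0316, with 0.383% of tested genes called), and it was chosen after this was seen. Its most abundant transcript, PAX6-268, held 38.6%, 35.1%, 39.0% and 37.0% of PAX6 counts in overexpression replicates 1 to 4, against 45.5%, 33.2%, 30.4% and 39.6% in control replicates 1 to 4, so the groups overlapped there. PAX6-219, singled out after its values were seen, had 0 counts in every overexpression library and 26, 27, 29 and 12 in control replicates 1 to 4. PAX6-215 leaned the other way, with 17, 0, 46 and 29 counts in overexpression replicates 1 to 4 and 2, 0, 0 and 0 in control. A transcript that enters the test through the group in which it is high gives no independent evidence. The call was made in 2 of 12 settings, with all libraries and with a minimum count of 5, and in none of those that left out a library.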
